A study of Mus musculus with 10 samples.

Results

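The 10 genes described here are the core of the integrated stress response in mouse embryonic stem cells (ESC). They comprise the 4 kinases of the translation initiation factor eIF2alpha (Eif2ak1, Eif2ak2, Eif2ak3 and Eif2ak4), both inducible and constitutive subunits of the phosphatase that reverses them (Ppp1r15a and Ppp1r15b), the transcription factor Atf4, and 3 of its effectors (Ddit3, Trib3 and Chac1). They were chosen by gene symbol from the 20206 genes in the expression table, with earlier results of these data known. All 10 were present and passed the filter on low values. RNA was sequenced from 10 wild-type C57Bl/6 ESC lines, labelled male. For 5 of them the mother ate low protein diet (LPD, 9% casein), and for the other 5 normal protein diet (NPD, 18% casein). The mothers were of the same strain and received the diet from the morning after mating until the blastocysts were collected. Each line came from a different mother, was derived on a layer of feeder fibroblasts and was collected at passage 9 to 12 after feeder-free culture. The diet thus ended before derivation began, and each line is 1 derivation.

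In the integrated stress response, each kinase answers to a different stress and places the same phosphate on eIF2alpha. Eif2ak1 (HRI) is known for sensing haem shortage and mitochondrial stress, Eif2ak2 (PKR) double-stranded RNA, Eif2ak3 (PERK) unfolded protein in the endoplasmic reticulum, and Eif2ak4 (GCN2) uncharged tRNA when amino acids run short. The phosphate slows most translation but favours translation of the Atf4 message, and Atf4 then switches on genes of amino acid supply and of stress adaptation, among them Ddit3, Trib3, Chac1 and the phosphatase subunit Ppp1r15a. The first steps act on protein, so a messenger RNA level of a kinase or of Atf4 is not a measure of kinase activity or of Atf4 protein.

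Atf4 binds, as a pair with a C/EBP protein, to a short element known as the C/EBP-ATF response element. The promoters of the 10 genes were searched for that element because Atf4 binds it, and the stretches found are shown. The letters TGATGNAAN were searched on both strands in RefSeq promoters of the GRCm38.p6 build, each reaching from 250 bases before to 50 bases after a gene start. A promoter was at hand for 9 of the 10 genes, and 2 of the 9, Chac1 and Trib3, held the element, against 4.50% of the 27025 promoters in the table. The stretches that hold it are given 5′ to 3′ on the strand of the gene, with the element in capitals. In both it lies on the opposite strand.
Chac1, chr2:119351018-119351087, plus strand: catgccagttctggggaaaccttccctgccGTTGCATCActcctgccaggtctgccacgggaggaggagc
Trib3, chr2:152344029-152344057, minus strand: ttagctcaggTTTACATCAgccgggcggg
In Chac1 the element reads TGATGCAAC and starts 194 bases before the RefSeq gene start. In Trib3 it reads TGATGTAAA and starts 14 bases after the RefSeq start. Only Chac1 thus holds the element when the 250 bases before the RefSeq start are searched alone. The gene positions given below are those of GENCODE M21, whose starts differ from these. By the GENCODE start of Trib3, at 152344032 on the minus strand, its element lies before the start. Absence of these letters from the other 7 windows, that of the effector Ddit3 among them, says only that they are not in those windows. The same search over the listed Atf4 target genes was void, since promoters were at hand for only 38 of 50.

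Values are normalised estimated counts per gene, which are not whole numbers of reads. The fold changes below are LPD minus NPD on the log2(value + 1) scale, each with its standard error (SE). They were tested with limma across 14354 genes, with Benjamini-Hochberg adjustment over all of them and 0.1 as the threshold. For single genes, an exact permutation test (two-sided) over all ways to assign 5 lines to each diet is also given, and its p cannot go below 0.00794.
Depth was uneven, at 20274248 to 23184191 read equivalents in the NPD lines and 5855199 to 24291971 in the LPD lines, with LPD line 4 the lowest. At least 78.1 read equivalents stood behind each value of the 10 genes, with the fewest for Ddit3 in LPD line 4, where counting alone gives a relative error of 11.3%. In 2 lines the Y-linked gene Ddx3y went against the male label, at 174 in LPD line 4 and 7.70 in NPD line 15, against 1110 to 1493 in the others. The 10 markers of undifferentiated ESC were all expressed, with summed values of 74260 to 96989 in LPD and 74869 to 98726 in NPD. Their log2 fold change was above 0 in 3 and below 0 in 7, with a median of -0.03, and 0 had an unadjusted p under 0.05. Of 10 feeder fibroblast markers 7 were tested, 6 of them with a log2 fold change below 0 and 0 at an unadjusted p under 0.05. Their summed value ranged from 369 to 3450 in LPD and from 459 to 5833 in NPD, highest in NPD line 15, with Lum, Dcn, Postn and Twist2 at 0 in at least 1 line. All 8 primitive endoderm markers had a log2 fold change above 0, and 0 of them had an unadjusted p under 0.05. The mean values of Gata6 (321.4 in LPD and 321.5 in NPD) and Dab2 (823 and 826) were not higher in LPD. The sums of these markers were 1712 to 11490 in LPD and 967 to 8728 in NPD, with Foxa2 at 0 in NPD line 15. Of 7 trophectoderm markers 6 were tested and 5 were higher in LPD, 0 of them at an unadjusted p under 0.05. Their sums were 3301 to 10338 in LPD and 3071 to 6224 in NPD. In bulk RNA, fewer cells of a type and less RNA per cell cannot be told apart.

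Atf4 and all 3 effectors had higher mean values in the LPD lines, as had both phosphatase subunits. The kinases had the fold changes smallest in size. None of the 10 genes passed adjustment (limma, 0 of 14354 genes in all, or 0%, under 0.1), while 721 genes had an unadjusted p under 0.05. At an unadjusted p under 0.05, 4 of the 10 were higher in LPD (Atf4, Chac1, Ppp1r15b and Trib3) and 0 were lower, against 2.84% of all genes higher and 2.18% lower, or 5.02% in either direction. The median log2 fold change was 0.31 over the 10 genes and 0.00 over all genes tested. Of the 10, 8 had a fold change above 0, against 50.5% of all genes. Atf4 was among the transcripts that the study selected on these same lines, so its place here is not independent evidence. There a single Atf4 transcript passed adjustment in sleuth, and the study also reported Atf4 higher in LPD by qRT-PCR. The values tested here are per gene. The 10 genes were chosen with earlier results of these data known, so their counts are not independent evidence either.

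**Figure D1:**
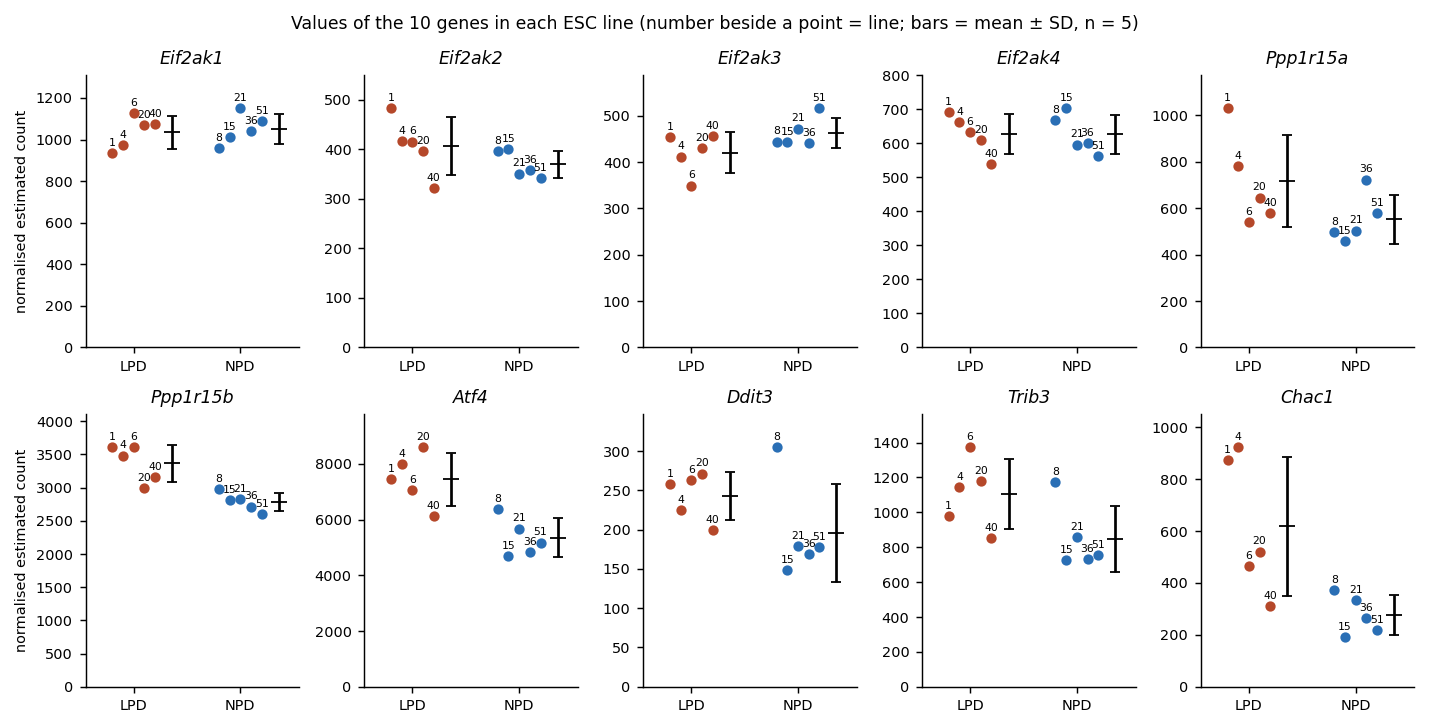
Normalised estimated count (vertical axis, from 0) of each of the 10 genes in the 5 LPD and 5 NPD lines, each point 1 line marked with its number, with the mean and SD of each diet beside the points. The diets are apart in every line for Ppp1r15b alone, and in Atf4 and Chac1 LPD line 40 reaches into the range of the NPD lines.

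The fold changes of the kinase transcripts were the smallest in size of the 10 genes, though with 5 lines per diet equal levels are not shown. Eif2ak1 (chromosome 5, 143817788 to 143904251) was measured at 936, 972, 1128, 1070 and 1072 in LPD lines 1, 4, 6, 20 and 40, and at 958, 1011, 1151, 1042 and 1090 in NPD lines 8, 15, 21, 36 and 51. The diets covered nearly the same range, and this kinase had the smallest relative spread of the 10 genes, with a coefficient of variation of 6.97% over the lines. Its log2 fold change was -0.02 (SE 0.087, 95% interval -0.21 to 0.17, exact permutation test, p = 0.762).
Eif2ak4, the sensor of amino acid shortage (chromosome 2, 118388618 to 118475234), had values of 692, 663, 632, 608 and 537 in the LPD lines and 668, 703, 596, 600 and 561 in the NPD lines, in the same order of lines. The groups overlapped throughout, with means of 626 ± 59.0 in LPD and 625 ± 58.0 in NPD (SD, n = 5 each). Its log2 fold change was 0.00 (SE 0.10, 95% interval -0.22 to 0.22, exact permutation test, p = 0.984).

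Eif2ak2, the sensor of double-stranded RNA (chromosome 17, 78852564 to 78882573), was measured at 483, 416, 416, 397 and 321 in the LPD lines and 396, 401, 351, 359 and 342 in the NPD lines. LPD lines 1, 4 and 6 lay above every NPD line, and LPD line 40 lay below them all. The log2 fold change was 0.13 (SE 0.12, exact permutation test, p = 0.294).
Eif2ak3, the endoplasmic reticulum sensor (chromosome 6, 70844515 to 70905245), had values of 454, 411, 349, 430 and 455 in the LPD lines and 444, 443, 472, 441 and 516 in the NPD lines. It had the lowest fold change of the 10 genes, with LPD line 6 the lowest of all lines and NPD line 51 the highest. LPD lines 4, 6 and 20 lay below every NPD line. The log2 fold change was -0.14 (SE 0.11, exact permutation test, p = 0.103). The direction of Eif2ak1 and Eif2ak4 turned with the choice of lines, and that of Eif2ak4 also with the scaling.

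Both phosphatase subunits were higher in LPD on average, in different ways. Ppp1r15b (CReP), the subunit known for constitutive dephosphorylation of eIF2alpha (chromosome 1, 133131143 to 133139783), was measured at 3605, 3482, 3607, 2995 and 3155 in LPD lines 1, 4, 6, 20 and 40, and at 2976, 2812, 2829, 2716 and 2605 in NPD lines 8, 15, 21, 36 and 51. It was the only one of the 10 genes in which the lowest LPD line was above the highest NPD line, against 1.02% of all genes tested that were apart in either direction and 0.523% that were apart with LPD above. The gap was narrow, between 2995 in LPD line 20 and 2976 in NPD line 8. Its mean was 3369 ± 279 in LPD and 2787 ± 138 in NPD (SD, n = 5 each), a log2 fold change of 0.27 (SE 0.079, limma adjusted p = 0.665, from 0.356 to 1.000 over the alternatives). The exact permutation test gave the smallest p it allows (p = 0.00794). On rescaling of all lines to 1 common total, LPD line 20 came to 2799 and NPD line 8 to 3069, and the diets overlapped.
Of the exon bases of Ppp1r15b, 11.4% lie opposite the antisense gene Gm26616. Strand was not stated for these libraries, so reads of both genes cannot be told apart there. The same holds for 8.59% of the exon bases of Eif2ak1 (opposite Aimp2) and 8.05% of those of Eif2ak3 (opposite Gm43292).

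Ppp1r15a (GADD34), the stress-induced subunit that closes the feedback loop (chromosome 7, 45522916 to 45526268), had values of 1031, 781, 540, 645 and 580 in the LPD lines and 498, 458, 503, 723 and 578 in the NPD lines. LPD lines 1 and 4 lay above every NPD line, while the other 3 LPD lines lay within the range of NPD, in which line 36 was high. The log2 fold change was 0.35 (SE 0.18, limma adjusted p = 0.994, exact permutation test, p = 0.119), and 0.21 without LPD line 1.

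Atf4 (chromosome 15, 80255184 to 80257541) was measured at 7444, 8006, 7058, 8594 and 6125 in LPD lines 1, 4, 6, 20 and 40, and at 6376, 4678, 5681, 4841 and 5178 in NPD lines 8, 15, 21, 36 and 51. LPD line 40 and NPD line 8 were the only lines that overlapped, so that the other 4 LPD lines were above all of NPD. The mean was 7445 ± 939 in LPD and 5351 ± 690 in NPD (SD, n = 5 each), a log2 fold change of 0.48 (SE 0.11, limma adjusted p = 0.435, exact permutation test, p = 0.0159). No run of 31 bases in the annotated Atf4 transcripts is shared with a transcript of another gene, on either strand.
Without LPD line 40 the log2 fold change of Atf4 was 0.54 and the adjusted p was 0.0943 (limma). In that comparison 2 of the 10 genes, Atf4 and Chac1, passed the threshold of 0.1, against 40 of 14384 genes, or 0.278%. The groups were then apart in Ppp1r15b, Atf4 and Chac1, against 2.72% of all genes. For Atf4 and Chac1 this followed from the choice of line, since LPD line 40 alone of the LPD lines reached into the NPD range. LPD line 40 had a low depth of 11240841 read equivalents, as had LPD line 4 at 5855199 and LPD line 6 at 12311129. The part of LPD line 40 in the result was not tested beyond this.

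The 3 effectors were all higher in LPD on average, most of all Chac1. Chac1, a gamma-glutamyl cyclotransferase that degrades glutathione (chromosome 2, 119351229 to 119354381), was measured at 873, 923, 464, 521 and 311 in LPD lines 1, 4, 6, 20 and 40, and at 372, 192, 335, 263 and 218 in NPD lines 8, 15, 21, 36 and 51. LPD lines 1 and 4 stood highest and only LPD line 40 lay below the highest NPD lines, 8 and 21. The mean was 619 ± 267 in LPD and 276 ± 76.4 in NPD (SD, n = 5 each), a 2.13-fold difference in the fit, or 1.09 on the log2 scale (SE 0.29, 95% interval 0.47 to 1.71). This was the largest fold change and the largest relative spread of the 10 genes, with a coefficient of variation of 57.8% over the lines. The limma adjusted p was 0.551 and 0.0943 without LPD line 40, with a log2 fold change of 1.31, and the exact permutation test over all lines gave p = 0.0238. Without both lines in which Ddx3y stood apart, LPD line 4 and NPD line 15, the log2 fold change of Chac1 was 0.80 and that of Atf4 0.40.

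Trib3, a pseudokinase known to restrain the Atf4 and Ddit3 response (chromosome 2, 152337422 to 152344032), had values of 977, 1144, 1373, 1180 and 852 in the LPD lines and 1172, 724, 858, 733 and 755 in the NPD lines. NPD line 8 lay among the upper LPD lines, and the other 4 NPD lines were close together below or just above LPD line 40. The log2 fold change was 0.39 (SE 0.16, limma adjusted p = 0.952, exact permutation test, p = 0.0794). Its unadjusted limma p under 0.05 was lost on leaving out 1 line (LPD line 4, 6 or 20, or NPD line 15, 36 or 51), and also with depth as a covariate, and without LPD line 4 and NPD line 15 together, where the log2 fold change was 0.32.
Ddit3 (CHOP), a transcription factor known for promoting cell death under lasting stress (chromosome 10, 127290774 to 127296288), had values of 258, 225, 263, 272 and 199 in the LPD lines and 305, 148, 179, 169 and 178 in the NPD lines. NPD line 8 was the highest of all 10 lines, and the other 4 NPD lines were lower than every LPD line. The log2 fold change was 0.35 (SE 0.19, limma adjusted p = 0.994, exact permutation test, p = 0.127). Without NPD line 8 it was 0.52 and that of Trib3 0.51, and the diets were then apart in Ppp1r15b, Atf4 and Ddit3, against 1.69% of all genes. For Atf4 and Ddit3 this separation followed from the choice of line, since of the NPD lines only line 8 lay above the lowest LPD line. Ddit3 shares 3.97% of its exon bases with Mars on the opposite strand, and 4.56% of its runs of 31 bases with transcripts of other gene entries.

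**Figure D2:**
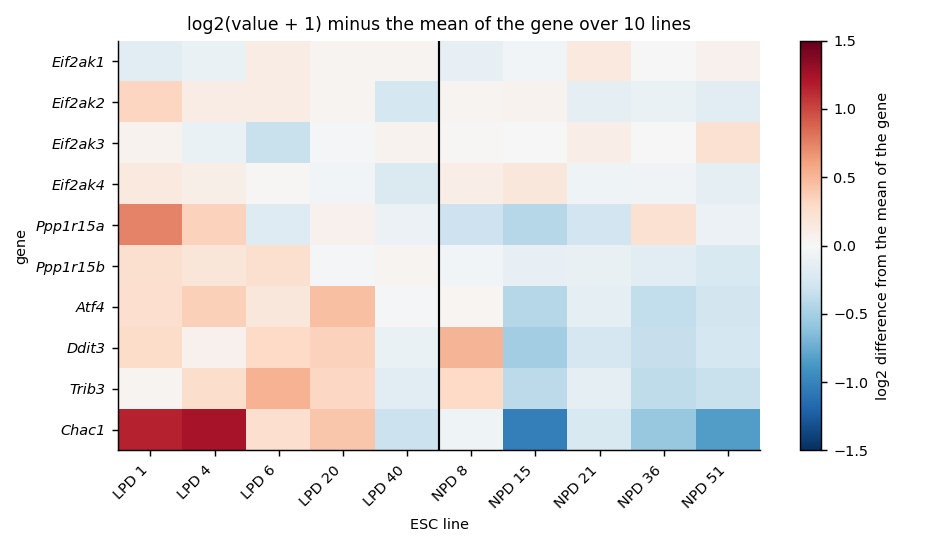
Difference of log2(value + 1) from the mean of each gene over the 10 lines, with genes in rows and lines in columns, LPD to the left of the black line, and red for higher and blue for lower. Chac1 varies most and Eif2ak1 least, and LPD line 40 and NPD line 8 differ in colour from other lines of their diet in most of the lower 4 rows.

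Read by line, the spread of Atf4 and the effectors was wider than that of the kinases. Each log2 value was set against the median of its gene over the 10 lines. Over Atf4, Ddit3, Trib3 and Chac1, the mean of these differences was 0.48, 0.54, 0.37, 0.44 and -0.10 in LPD lines 1, 4, 6, 20 and 40. In NPD lines 8, 15, 21, 36 and 51 it was 0.25, -0.535, -0.14, -0.36 and -0.37. LPD line 40 and NPD line 8 thus went against the other lines of their diet, in sign as well as in size. Over the 4 kinases the same mean lay between -0.11 and 0.08 in every line.
NPD line 15 had the lowest value of all lines in Atf4, Ddit3, Trib3, Chac1 and Ppp1r15a, and it was the line with the highest feeder fibroblast markers and the lowest primitive endoderm markers. Its part in the result was tested by leaving it out, which gave a log2 fold change of 0.43 for Atf4 and 0.97 for Chac1. That of Ddit3 was then 0.26.

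The levels of the genes relative to each other were compared per kilobase of the longest coding transcript. Atf4 stood far above the rest at 3709 ± 783 per kilobase (SD over 10 lines), 6.74 times the mean of Ppp1r15b at 550 ± 66.2, with this order in 10 of 10 lines. Trib3 followed at 482 ± 112, Chac1 at 273 ± 158, Ddit3 at 247 ± 59.0, Eif2ak1 at 241 ± 16.8 and Ppp1r15a at 226 ± 61.5. Ppp1r15b lay above Trib3 in 7 of 10 lines, and Trib3 above Chac1 in 9, with 1.76 times its mean. Chac1 and Ddit3 kept their order in 4 of 10 lines, Ddit3 and Eif2ak1 in 5, and Eif2ak1 and Ppp1r15a in 7, so that these last 3 pairs did not differ beyond their spread.
The remaining kinases were lowest, at 118 ± 10.4 per kilobase for Eif2ak4 and 97.9 ± 9.48 for Eif2ak3, which was 1.09 times the mean of Eif2ak2. Ppp1r15a lay above Eif2ak4 in 10 of 10 lines, Eif2ak4 above Eif2ak3 in 9 and Eif2ak3 above Eif2ak2 in 7. Of the kinases, Eif2ak1 had the highest level. With the union of all exons as the length, Ppp1r15a came above Eif2ak1, Ddit3 below Eif2ak1, and Eif2ak2 above Eif2ak3.

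**Figure D3:**
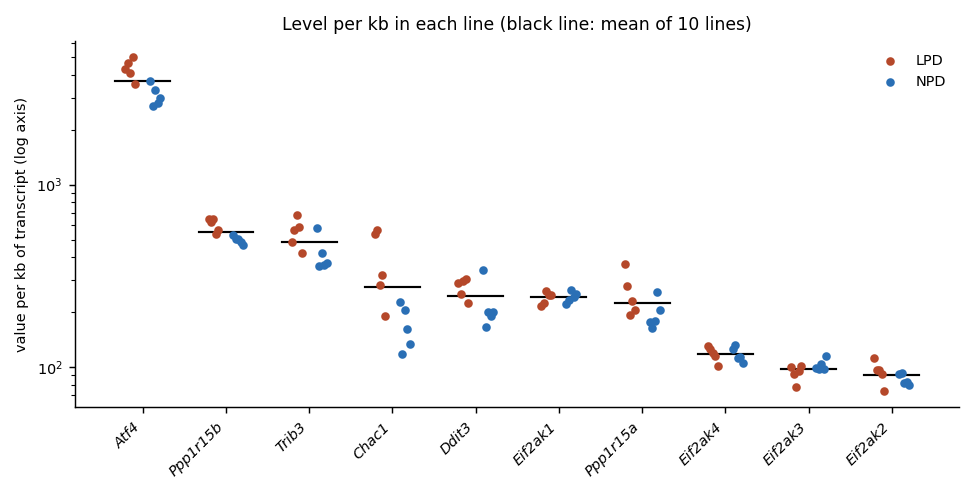
Value per kilobase of the longest coding transcript (log axis) of the 10 genes in order of their mean over 10 lines (black line), with 1 point for each LPD (left) and NPD (right) line. Atf4 lies above every other gene in all 10 lines, and 3 of the 4 kinases lie lowest.

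Across lines, the 3 effectors had the highest correlations with Atf4 among the other 9 genes, though none passed adjustment at 0.05. After the diet means were removed from the log2 values, Pearson's r with Atf4 over the 10 lines was 0.78 for Ddit3 (Spearman's rho 0.78), 0.75 for Trib3 (rho 0.81) and 0.72 for Chac1 (rho 0.73). The exact permutation p within diets was 0.00833, 0.0222 and 0.0306 for Pearson's r and 0.0151, 0.0117 and 0.0292 for rho. After adjustment over the 9 relations computed it was 0.0750, 0.0917 and 0.0917 for r (exact permutation) and 0.0678, 0.0678 and 0.0875 for rho, so that none was under 0.05.
Of all genes tested, 0.411% had an r with Atf4 as high as Ddit3, 0.732% as high as Trib3 and 1.18% as high as Chac1. Without LPD lines 20 and 4, the farthest from the median of Atf4, r was 0.91, 0.79 and 0.83. It was lowest without NPD line 8 for Ddit3 (0.70, exact permutation p = 0.0701) and Trib3 (0.60, exact permutation p = 0.157), and without LPD line 40 for Chac1 (0.55, exact permutation p = 0.136). All genes of a line share its library and depth.
For the other 6 genes r lay between -0.23 for Eif2ak1 and 0.39 for Eif2ak2, with 0.08 for Ppp1r15a and 0.15 for Ppp1r15b. Their adjusted exact permutation p was 0.687 or more. Among the genes most like Atf4 in this measure were Plpbp (r = 0.94), Ankrd28 (r = 0.92) and Cdkl3 (r = 0.92), over the same 10 lines. None of these 3 differed between the diets at an unadjusted p under 0.05, with limma log2 fold changes of 0.07, 0.06 and 0.01.

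**Figure D4:**
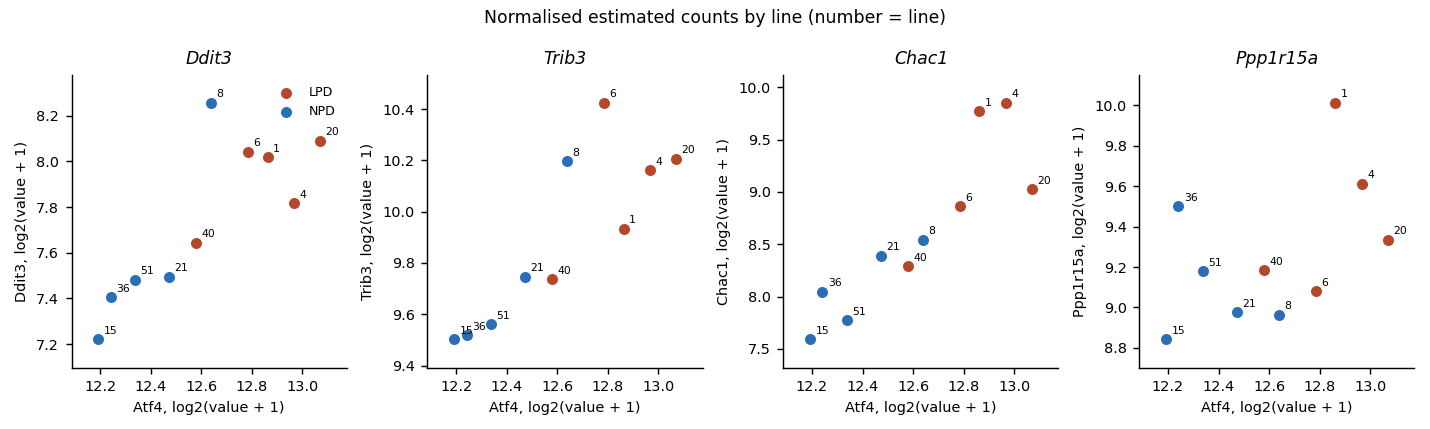
Log2(value + 1) of Ddit3, Trib3, Chac1 and Ppp1r15a against that of Atf4, each point 1 line marked with its number, LPD in red and NPD in blue. With diet means removed, r is 0.78, 0.75 and 0.72 for the first 3 genes and 0.08 for Ppp1r15a.

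The wider set of Atf4 targets was mostly on the higher side in LPD. This list was chosen with earlier results of these data known, so its counts are not independent evidence. Of 50 listed targets 49 were tested, 39 with a log2 fold change above 0 and 10 below, against 50.5% of all genes above 0, with a median of 0.15 against 0.00 for all genes. At an unadjusted p under 0.05, 12 were higher and 0 lower, or 24.5% of the list, against 2.84% of all genes higher and 5.02% in either direction, and 0 passed adjustment (limma). The 3 with the smallest p were Psph and Phgdh, both enzymes of serine synthesis, and Mthfd2, a mitochondrial enzyme of one-carbon metabolism.
Psph was 1493 ± 186 in LPD and 1131 ± 122 in NPD (SD, n = 5 each), a log2 fold change of 0.40 (SE 0.11, limma adjusted p = 0.551). Mthfd2 was 3161 ± 374 and 2420 ± 324, a log2 fold change of 0.39 (SE 0.11, limma adjusted p = 0.665). Phgdh was 2766 ± 109 and 2240 ± 351, a log2 fold change of 0.32 (SE 0.11, limma adjusted p = 0.839).
Phgdh and the alanyl-tRNA synthetase Aars were the 2 listed targets in which the diets did not overlap, against 1.02% of all genes tested. Named after their values were seen, the other targets at an unadjusted p under 0.05 were the serine enzyme Psat1, the asparagine synthetase Asns, the amino acid transporter genes Slc7a1 and Slc3a2, the tRNA synthetases Aars, Cars and Gars, the stress gene Sesn2 and the lipoprotein receptor Vldlr. The count of 12 was 5 without LPD line 4 and NPD line 15, against 4.27% of all genes in either direction, and 6 with depth as a covariate, against 4.17%. The median of the list was then 0.13 and 0.19. The count was 8 without LPD line 4 alone, against 5.28% of all genes, and 8 without NPD line 51, against 4.57%. Without LPD line 6, 8 were higher and 1 lower, against 5.40% of all genes in either direction.

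**Figure D5:**
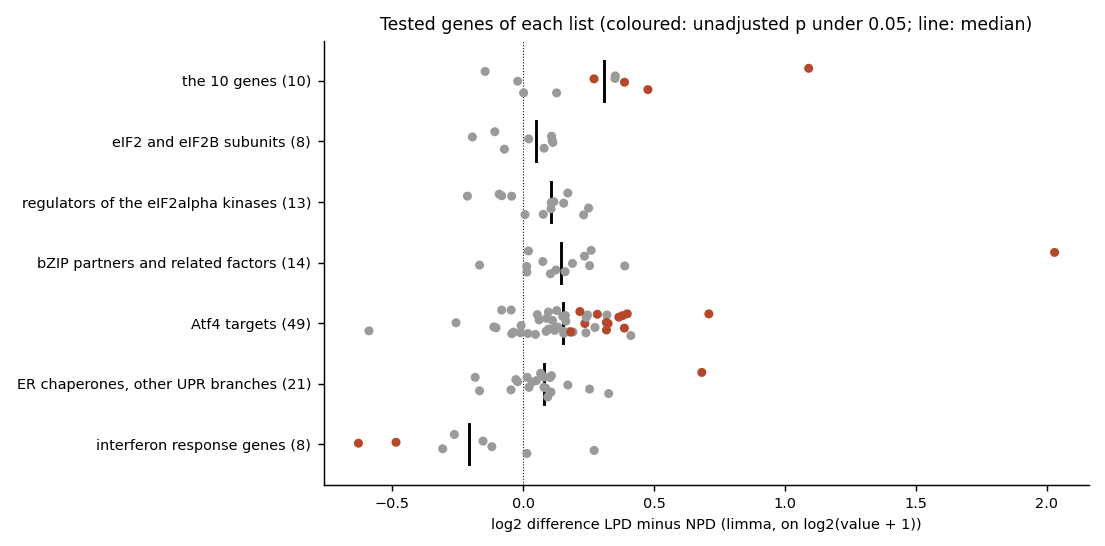
Log2 fold change LPD minus NPD (horizontal axis, limma on log2(value + 1)) of the tested genes of each list (rows, number of genes in brackets), each point 1 gene, with the median as a black line and genes at an unadjusted p under 0.05 in red. The medians are 0.31 for the 10 genes, 0.15 for Atf4 targets and -0.21 for interferon response genes, and 0 genes pass adjustment.

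Of the genes that act beside the kinases and the phosphatase, none passed the test. All 8 subunits of eIF2 and of its exchange factor eIF2B were tested, 5 higher and 3 lower with a median log2 fold change of 0.05, and 0 at an unadjusted p under 0.05. The smallest p were those of Eif2s3x (-0.19, SE 0.13), Eif2s2 (0.11, SE 0.087) and Eif2b3 (0.11, SE 0.10). Eif2s3x, which is X-linked, was highest in NPD line 15 at 9400, against 5471 to 7256 in the other lines.
Of the 13 known regulators of the kinases, 9 were higher and 4 lower with a median of 0.11, and 0 were at an unadjusted p under 0.05. Those with the smallest p were Nck2 (0.25, SE 0.13), Yipf5 (0.17, SE 0.10) and Abcf3 (-0.21, SE 0.13). Without LPD line 6 their median was 0.05, and without LPD line 20 that of the eIF2 and eIF2B subunits was 0.0077, with 4 higher and 4 lower. The counts of 0 also changed with the lines. Without LPD line 20, 1 subunit was lower and 1 regulator higher at an unadjusted p under 0.05, against 5.07% of all genes. Without LPD line 6, 1 regulator was lower (5.40% of all genes), and without NPD line 51, 1 was higher (4.57%).

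Among the 14 listed bZIP factors, which are partners of Atf4 and related factors, Atf3 had the largest fold change. Atf3, itself a known stress-induced factor (chromosome 1), was measured at 448, 401, 322, 196 and 94.9 in LPD lines 1, 4, 6, 20 and 40, and at 82.5, 68.7, 52.6, 72.3 and 41.5 in NPD lines 8, 15, 21, 36 and 51. The diets did not overlap, as in 1.02% of all genes tested, counted in either direction. The log2 fold change was 2.03 (SE 0.38, limma adjusted p = 0.290, exact permutation test, p = 0.00794, the smallest it allows). The other 13 factors of the list were less far apart and none had an unadjusted p under 0.05. After Atf3 the smallest p were those of Xbp1 (-0.17, SE 0.089) and Atf6 (0.25, SE 0.14), and 13 of 14 factors were higher in LPD with a median of 0.14. This count rested on single lines, with 8 of 14 higher and a median of 0.01 without LPD line 6, and 9 of 14 higher without LPD line 40.

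The list for the other branches of the unfolded protein response, 21 genes, had 16 higher and 5 lower in LPD, with a median of 0.08, which was 0.04 without LPD line 1 or NPD line 8. Herpud1, a gene of endoplasmic reticulum associated degradation that Atf4 is also known to induce, was its only gene at an unadjusted p under 0.05 (limma log2 fold change 0.68, SE 0.15, adjusted p = 0.422). It was among the transcripts that the study selected on these lines. Xbp1 and Atf6 followed, with the values already given.
Of 16 interferon response genes, a program that double-stranded RNA is known to set off beside Eif2ak2, 8 passed the filter on low values, 2 higher and 6 lower with a median of -0.21. At an unadjusted p under 0.05, 0 were higher and 2 were lower, Stat2 (-0.49, SE 0.17) and Oas1a (-0.63, SE 0.28), against 2.84% of all genes higher and 2.18% lower, and 0 passed adjustment (limma). With single lines left out, 1 to 3 were lower and up to 1 higher, with 1 lower without LPD line 4, 20 or 40 or NPD line 15, 21, 36 or 51 and 3 lower without LPD line 6. With single lines left out, 3.83% to 6.28% of all genes were at an unadjusted p under 0.05 in either direction. Bst2 had the next smallest p, at 0.27 (SE 0.14). The remaining 8 had a mean under 10 over the lines.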

How the data were processed

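The authors trimmed adaptors with cutadapt, removed reads of low quality and quantified GRCm38 transcripts with Salmon, and tested transcripts with sleuth 0.30.0 (submitters' processing notes). The deposited table holds a signal per gene, an estimated count normalised by the authors with DESeq2 according to its name. How transcripts were summed to genes is not given in the sources used here, and 0 columns were without a mapped line. Whole reads could not be recovered, since only 66.4% to 72.0% of low values were whole multiples of the value of 1 read (tolerance 0.15), so no count model was used. Read equivalents are the total of a line divided by that value, from the 4295 genes with 1 annotated transcript. Positions come from GENCODE M21 (98.6% of genes matched).

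Values were transformed as log2(value + 1), genes with a mean under 10 over the lines were left out, and limma 3.58.1 in R 4.3.3 was fitted (lmFit, eBayes with a trend, no covariate) with Benjamini-Hochberg adjustment. Correlations were tested over 14400 orders within diets. Python 3.11.15 with numpy 2.4.6, pandas 2.3.3 and scipy 1.17.1 did the rest. On simulated data for this comparison (14354 genes) the fit recovered 55.1% of genes with a log2 change of 1 and 89.2% of genes with a change of 2, with 11 false calls. Genes were simulated independently of each other and no change smaller than 1 was simulated. Of the 10 genes only Chac1 had a fitted log2 fold change that large. Named were the 10 genes, the 3 genes of each other list with the smallest p, the 5 most correlated with Atf4, and Ddx3y, of which 2 genes are not reported here. The 10 genes and all lists were chosen with earlier results of these data known. Alternatives were other pseudocounts, filters, scalings and limma settings, depth as a covariate, and lines left out.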

Additional observations from a re-analysis of the deposited data

Results flagged for a closer look

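Ddit3 in NPD line 8 stood apart from the other NPD lines, with a value of 305. Its gap to the nearest NPD line was 0.801 of the range of the 5 NPD lines, above the 95% critical value of Dixon's test for 5 values. This test was made in 20 groups, 1 for each of the 10 genes in each diet, and chance alone flags about 1 in 20. Trib3 and Atf4 also had their highest NPD value in this line, at 1172 and 6376, and so had Chac1 at 372.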

How the results depend on the processing

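No paired analysis was possible because the diets share no line numbers. Each fold change was recomputed under 22 alternatives. Those of Atf4 (0.40 to 0.54), Chac1 (0.80 to 1.31), Trib3 (0.30 to 0.51), Ppp1r15b (0.23 to 0.31), Ddit3 (0.26 to 0.52), Ppp1r15a (0.21 to 0.45), Eif2ak2 (0.06 to 0.21) and Eif2ak3 (-0.18 to -0.08) kept their sign throughout. Eif2ak4 turned to -0.0323 on rescaling to the same total, to -0.0084 with quantile normalization, and ranged from -0.0359 to 0.0559 with single lines left out, as did Eif2ak1 from -0.0533 to 0.0148. Of the genes at an unadjusted p under 0.05, 56.6% were higher in LPD, and 40.2% on rescaling, which moved the median of all genes to -0.03. There were 721 such genes in all and 1021 with no filter on low values.

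With single lines left out, 3 to 5 of the 10 genes had an unadjusted p under 0.05, against 3.83% to 6.28% of all genes. An adjusted p under 0.1 was reached by 0 to 2 of the 10 genes and 0 to 40 of all genes, highest without LPD line 40. Of the 10, 1 to 3 were without overlap. The 3 were found without LPD line 40, against 2.72% of all genes, and without NPD line 8, against 1.69%. Array weights gave 1 gene under 0.1, and rescaling left 0 of the 10 genes without overlap. The count of 12 Atf4 targets was 6 with depth as a covariate, against 4.17% of all genes. It was 5 without LPD line 4 and NPD line 15, against 4.27%. The number of genes correlated with Atf4 at an adjusted exact permutation p under 0.05 was 1 on rescaling, 1 without the 2 lines farthest from the median of Atf4 and 0 to 2 with single lines left out. With single lines left out, r ranged from -0.39 to 0.0595 for Eif2ak1, -0.123 to 0.57 for Eif2ak2, -0.24 to 0.24 for Eif2ak3, -0.0932 to 0.64 for Eif2ak4, -0.14 to 0.28 for Ppp1r15a, -0.0841 to 0.68 for Ppp1r15b, 0.70 to 0.84 for Ddit3, 0.60 to 0.94 for Trib3 and 0.55 to 0.86 for Chac1. With only the 250 bases before the RefSeq start, 1 of the 10 genes and 3.89% of promoters held the element. The cause of each was not tested. Depth limits Ddit3 most, in LPD line 4.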
